A study of Mus musculus with 6 samples.

Results

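The cells described are AtT-20 corticotropes, a mouse pituitary tumour line, in control medium. All of them carried a stably transfected, doxycycline-inducible rat PAM-1 transgene, which was also in the genome of these uninduced cells. PAM is peptidylglycine alpha-amidating monooxygenase, the copper-dependent granule enzyme that amidates peptides. The study grew clones 14, 6_1 and 6_2 for 48 h with or without doxycycline, and total RNA labelled with biotin was hybridised to Illumina MouseWG-6 v2.0 bead arrays. The 3 control arrays of the 6 in the series, chosen by their titles, are described here, and no comparison with doxycycline was made. The growth medium held tetracycline-free fetal bovine serum. The labels give the line as male and do not say if clones 6_1 and 6_2 were derived independently, so the 3 arrays may stand for fewer than 3 independent lines.

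A probe counted as present when its detection p-value, the chance of its signal under the array's own background, was under 0.01 on all 3 control arrays. It counted as absent when that p was 0.05 or more on all 3, and otherwise as between. Of 45281 probes, 15905 (35.1%) were present, 24065 (53.1%) were absent and 5311 lay between. Present probes were ranked by their mean normalised log2 signal, so rank 1 is the brightest. A gene stands by its brightest present probe. Of 19057 genes with a single symbol, 8787 (46.1%) were present, 8112 (42.6%) had absent probes only and 2158 lay between. These shares are the background for every list below. Probes bind with different strength, so a rank orders signals and not transcript numbers, and absence means only that a probe was not told from background. In bulk RNA, fewer cells with a transcript and less of it per cell cannot be told apart.

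Corticotropes are the anterior pituitary cells that release adrenocorticotropic hormone. They make it as part of the larger precursor encoded by Pomc, which prohormone convertases cut at paired basic residues and the carboxypeptidase encoded by Cpe then trims. The products are stored with granins in dense, acidic granules and released when corticotropin-releasing hormone acts on the receptor encoded by Crhr1, while glucocorticoids and somatostatin restrain release.

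The promoters of the brightest hormone precursors and granins are shown first, because the genes present on the arrays differ from the absent ones in the sequence upstream of their start sites as well as in signal, and the rule for presence used no sequence. Each window holds the 250 bases before the RefSeq start site in GRCm38.p6, written 5′ to 3′ on the strand of the gene. Capitals mark TATAAA, searched on the gene's strand, or TGACGT with its reverse complement ACGTCA, the core of the cyclic AMP response element, searched on both strands. These letters overlap in TGACGTCA. Positions count back from the start site. The Pomc window lies at chr12:3954695-3954944 on the plus strand, with TATAAA at -25. The Chgb window lies at chr2:132781392-132781641 on the plus strand, with TGACGT at -72, and the Chga window at chr12:102554691-102554940 on the plus strand, with it at -44.
Pomc: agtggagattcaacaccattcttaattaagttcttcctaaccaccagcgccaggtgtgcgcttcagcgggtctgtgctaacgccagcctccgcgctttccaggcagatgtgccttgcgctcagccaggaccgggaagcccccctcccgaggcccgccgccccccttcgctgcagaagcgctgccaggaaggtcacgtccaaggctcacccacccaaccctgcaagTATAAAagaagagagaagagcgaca
Chgb: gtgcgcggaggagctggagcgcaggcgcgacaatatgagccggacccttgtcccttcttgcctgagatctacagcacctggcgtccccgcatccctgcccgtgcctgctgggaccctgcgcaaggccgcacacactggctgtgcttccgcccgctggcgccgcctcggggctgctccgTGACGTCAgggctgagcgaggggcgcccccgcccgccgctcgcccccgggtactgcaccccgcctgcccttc
Chga: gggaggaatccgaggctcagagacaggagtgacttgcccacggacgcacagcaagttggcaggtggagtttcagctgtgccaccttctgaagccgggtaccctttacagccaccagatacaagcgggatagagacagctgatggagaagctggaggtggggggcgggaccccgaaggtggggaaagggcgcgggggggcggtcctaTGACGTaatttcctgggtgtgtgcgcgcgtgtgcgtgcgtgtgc

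The hormone precursors ranked next after Pomc were Nppb and Sct, and both also had TATAAA close to the start. The Nppb window lies at chr4:147985650-147985899 on the plus strand with TATAAA at -31, and the Sct window at chr7:141279134-141279383 on the minus strand with it at -28. Prl, the prolactin gene of lactotropes, is set beside them as an absent hormone gene. Its window, at chr13:27057320-27057569 on the plus strand, has TATAAA at -24 and 1 CpG. The Sct window has 22, the Pomc window 15 and the Nppb window only 5.
Nppb: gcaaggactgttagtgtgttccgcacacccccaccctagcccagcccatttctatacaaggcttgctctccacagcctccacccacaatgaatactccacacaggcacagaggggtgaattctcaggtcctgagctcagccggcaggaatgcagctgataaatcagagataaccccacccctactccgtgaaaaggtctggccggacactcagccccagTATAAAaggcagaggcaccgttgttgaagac
Sct: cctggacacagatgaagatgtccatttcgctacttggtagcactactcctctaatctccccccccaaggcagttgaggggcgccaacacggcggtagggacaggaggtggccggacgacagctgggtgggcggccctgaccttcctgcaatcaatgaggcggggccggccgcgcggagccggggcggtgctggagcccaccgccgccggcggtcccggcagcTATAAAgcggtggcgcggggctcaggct
Prl: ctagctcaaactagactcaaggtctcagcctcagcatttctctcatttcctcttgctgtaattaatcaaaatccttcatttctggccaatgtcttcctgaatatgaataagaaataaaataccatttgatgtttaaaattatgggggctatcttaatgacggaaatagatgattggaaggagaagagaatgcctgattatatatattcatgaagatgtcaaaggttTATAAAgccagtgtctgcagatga

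A match is a description of letters and not of a bound site. Exactly 1 RefSeq window was matched for 12630 of the 19057 genes, 5698 of them present. The median ratio of observed to expected CpG was 0.770 in present genes, 0.523 in the 1374 genes between and 0.265 in the 5558 absent genes. Among present genes it was 0.805 in the brightest 25% of probes, 0.779 and 0.751 in the next steps of 25%, and 0.693 in the dimmest 25%. The median GC share ran in the same order, at 60.4% in present, 56.6% in between and 50% in absent genes. The reverse order held for TATAAA, found in 3.74% of present, 7.13% of between and 13% of absent genes, against 8.68% of all 22862 windows. TGACGT or ACGTCA occurred in 11.5% of present, 6.99% of between and 4.66% of absent genes, against 6.51% of all windows. The 22862 windows also cover genes not analysed here. TGACGT and ACGTCA hold a CpG and TATAAA holds no C or G, so these shares are not independent of the CpG and GC medians. Among the 6 granin genes with a window, 4 held the TGACGT or ACGTCA motif (Chga, Chgb, Scg2 and Scg5). Of the 11 present hormone precursors 8 had a window, and 3 of the 8 held TATAAA (Pomc, Nppb and Sct). These small counts are given as they stand, without a test.

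**Figure D1:**
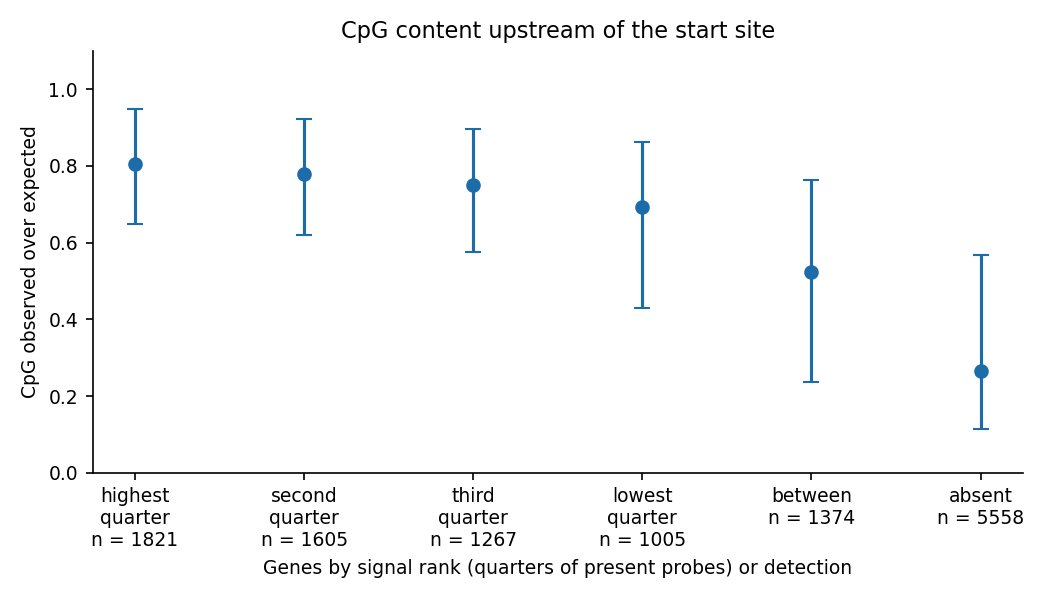
Ratio of observed to expected CpG (vertical axis, no unit) in the 250 bases upstream of the start site, for present genes by signal rank in steps of 25% and for genes between or absent. Points are medians and bars run from the lower to the upper quartile over genes. The median goes from 0.805 in the brightest 25% to 0.265 in absent genes, and the bars of neighbouring groups overlap.

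Across the control arrays 16851 to 17149 probes were detected at p under 0.01, which is 37.2% to 37.9%. The median scanner signal was 122.3 to 140.9 and the highest 68097 to 70553. The dimmest detected probe read 5.97 to 6.05 on the log2 scale. Over present probes, Pearson correlations were 0.981 between clones 14 and 6_2, 0.977 between clones 6_1 and 6_2, and 0.957 between clones 14 and 6_1. Clone 6_1 held the value farthest from the median in 46.2% of present probes, clone 14 in 35.4% and clone 6_2 in 18.4%. With 1 array per clone, clone, culture and array cannot be told apart, and 3 arrays limit the precision of each value. All values below are means ± SD over n = 3 arrays on the normalised log2 scale, unless the values of clones 14, 6_1 and 6_2 are given in that order.

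Pomc was among the brightest annotated genes, beside genes of respiration, translation and the cytoskeleton and others of no common class. Of the 100 brightest probes, 52 had a gene symbol and 48 had none and are not named. Atp5b, a catalytic subunit of ATP synthase, was at rank 11, followed by Mif, a secreted cytokine, at rank 12 and mitochondrial CYTB at rank 14. Pomc was at rank 17, and ND4, Eef1a1 (a translation elongation factor), Tubb5 and Tuba1b (tubulins) were at ranks 23 to 26. Psg23, of the pregnancy-specific glycoprotein family, was listed at rank 22 with 15.88 ± 0.09, but its other probe was absent, and which member of that family bound is uncertain. Glycolytic Ldha at rank 59, App at rank 58 and metallothionein Mt1 at rank 54 were also among the first 25 genes with a symbol. Not all of these 25 are named here. Pseudogenes and close paralogs of ribosomal, tubulin and ubiquitin genes can bind the same probe, so those ranks belong to families rather than to single genes.

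Pomc was close to the top of the scale on every array. Its scanner signals were 63213, 58644 and 62210 against array maxima of 69258, 70553 and 68097. On the normalised scale it read 15.91, 15.90 and 16 (15.94 ± 0.05). The clones differed little, and the brightest probe of all averaged 16.09, so Pomc lay where the order of probes is compressed. The other Pomc probe was present too, but far dimmer, with 9.23, 8.54 and 9.28 at rank 7943. With the mean over both probes in place of the brightest, Pomc moves from the top 0.107% to 5.96% of present probes.

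Of the corticotrope markers, 6 of 8 were present. Cpe ranked 148 with 14.15, 14.48 and 14.53, and Tbx19, the T-box factor that drives Pomc in this lineage, ranked 896 with 12.48, 12.62 and 12.50. Both were bright and close in all clones. Neurod1, a helix-loop-helix factor acting on Pomc, was mid-range at rank 8856 with 8.52, 8.70 and 8.80. The Crhr1 probes were near the bottom of the present range: the brighter read 6.74, 6.83 and 6.29 at rank 14819, another 6.38, 6.54 and 6.78 at rank 14985, and the third was absent. The convertase gene Pcsk1 read 6.47, 6.86 and 6.05 at rank 15277, also beside an absent probe. Its value in clone 6_2 is close to the dimmest detected probe of that array, 5.97. Avpr1b, the vasopressin receptor of corticotropes, was absent with 4.70, 5.07 and 4.97. Pitx1, a homeobox activator of Pomc, lay between and was detected on 0 of 3 arrays, with 5.0, 4.78 and 5.62. Of the 3 markers given for the cells, Pomc and Cpe were thus bright and Crhr1 barely above background.

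**Figure D2:**
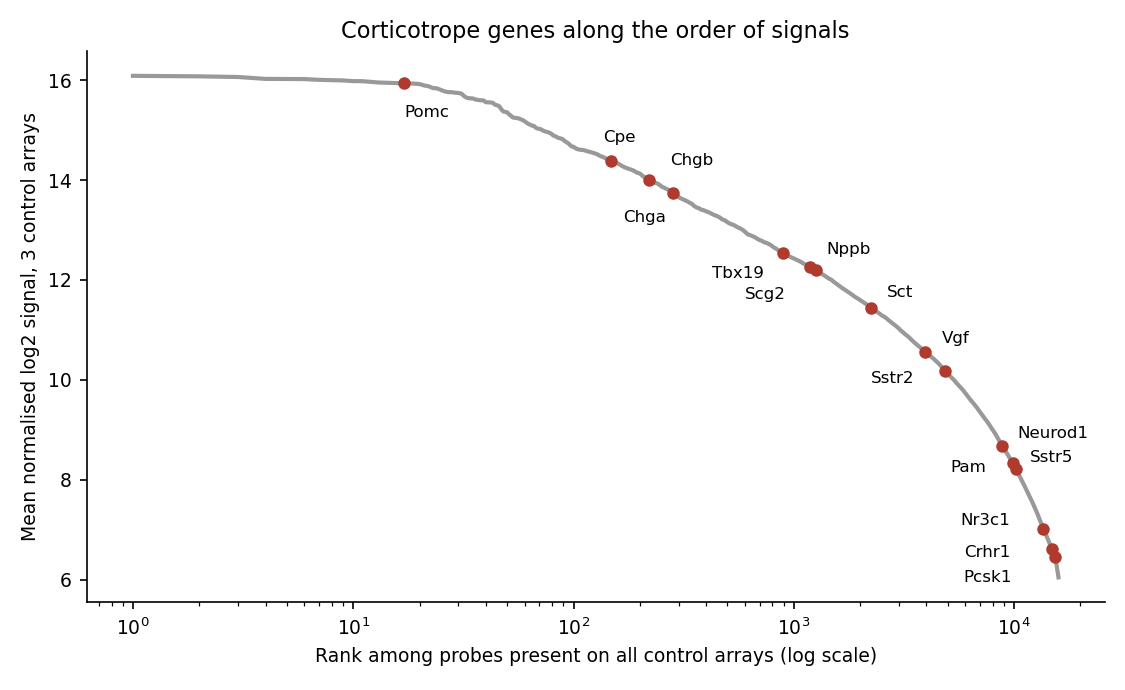
Mean normalised log2 signal over the 3 control arrays (vertical axis) against rank among the 15905 present probes (horizontal axis, log scale). The line is all present probes and the points are named corticotrope genes. Pomc at rank 17, Cpe at rank 148 and Tbx19 at rank 896 lie on the upper part, and Nr3c1, Crhr1 and Pcsk1 lie at ranks 13573 to 15277 at the lower end.

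Genes of other pituitary and stromal cells were mostly not detected. Of 6 hormone genes of other anterior pituitary cells 0 were present. Gh read 4.79, 4.68 and 4.86 and Prl 4.90, 4.78 and 4.83, and Tshb, Lhb and Fshb also had absent probes only. Cga, the common alpha subunit of the glycoprotein hormones, lay between. It read 6.36 in clone 14, where it was detected, and 5.33 and 5.02 in the other clones. None of the 12 analysed markers of other endocrine pituitary cells was present (0 of 12). Pax7, the melanotrope factor, Nr5a1, the gonadotrope factor, and Drd2, the dopamine receptor of melanotropes and lactotropes, were among the absent genes, and Pcsk2 and Pou1f1 were not analysed here. Present markers of other cell types numbered 0 of 8 for macrophages and leukocytes, 0 of 7 for fibroblasts, 0 of 2 for red blood cells, 1 of 7 for endothelium (Kdr at rank 15220) and 1 of 7 for stem and folliculostellate cells (Sox9 at rank 3613). Sox2 lay between, and S100b, Gfap and Vim were absent. Of 8 Y-linked genes and Xist analysed 0 were present, although the line is labelled male: Xist was absent on 4 probes, Sry, Zfy1 and Zfy2 were absent, and Eif2s3y and Uty lay between without being detected on any array.

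Epithelial keratins were a part of the profile. Krt8 ranked 424 with 13.44, 13.27 and 13.26, on 1 of its 2 probes. Its pairing partner Krt18 ranked 4482 (10.35 ± 0.16) and Krt7 ranked 3360 (10.84 ± 0.16). Krt14 was dimmer and uneven at rank 12136, with 8.23, 6.77 and 7.62. Present members were 4 of 8, close to the 46.1% of all genes, and Epcam, Krt19 and Krt5 were absent.

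Hormone and neuropeptide precursors as a class were rarely present. Among 66 analysed precursors 11 (16.7%) were present, 11 lay between and 44 were absent, against 46.1% present over all genes. At a detection p under 0.05 the count was 18. Only Pomc, Nppb and Sct lay in the brightest 25% of present probes, which held 2803 of the present genes (31.9%). Nppb, the precursor of brain natriuretic peptide, read 12.08, 12.56 and 12.13 at rank 1186. Sct, the precursor of secretin, read 12.01, 11.12 and 11.21 at rank 2230, with clone 14 above the others. Stc1 and Stc2, the stanniocalcins, ranked 4478 (10.36 ± 0.51) and 4856 (10.19 ± 0.06).

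The remaining 6 present precursors lay in the dimmer part. Adm2, or intermedin, read 8.92, 7.80 and 8.94 at rank 9212, and the related Adm ranked 12327 (7.47 ± 0.11). Cort (cortistatin), Insl3, Ghrh and Npb ranked from 14164 to 14932, with means of 6.84, 6.82, 6.73 and 6.58. The absent precursors include Crh and Avp, which encode the hypothalamic releasers of adrenocorticotropic hormone, and Sst, Gal, Npy and Adcyap1. Penk, Vip and Cck lay between.

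Every granule matrix gene examined was present, 8 of 8, against 46.1% of all genes, and 7 of the 8 were in the brightest 25%. The 8 include Gnas, whose granule transcript was not told apart from the other transcripts of its locus. Their median rank was 1170, where that of all present genes was 6476. Chgb, or chromogranin B, read 14.02, 13.86 and 14.13 at rank 221. Chga, or chromogranin A, read 13.58, 13.72 and 13.95 at rank 283, and its other probes ranked 366 and 389. These 3 Chga probes lay close together, where the median distance between the present probes of a gene was 4184 ranks. Secretogranin genes followed, with Scg3 at rank 1078 (12.36 ± 0.37), Scg2 at 1262 (12.20 ± 0.09, on 1 of 2 probes) and Scg5, the chaperone of the convertase PC2, at 1746 (11.77 ± 0.41).

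Vgf, a granule protein and peptide precursor, varied most within this class, with 11.17, 9.87 and 10.66 and the lowest value in clone 6_1, at rank 3954. Pcsk1n, which encodes the convertase inhibitor proSAAS, was the dimmest at rank 8083 with 9.19, 8.57 and 9.14. Gnas, listed here because its locus also encodes the granule protein NESP55, ranked 467 (13.23 ± 0.11). Its 9 present probes spread from rank 467 to 11864, and which transcript of the locus each reads was not tested.

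The processing enzymes were present in 16 of 22 cases (72.7%), against 46.1% of all genes, but the convertases spread over the whole range. Of the 16, 6 (37.5%) lay in the brightest 25%, against 31.9% of all present genes. Cpe was the brightest (14.39 ± 0.21). Furin, the convertase of the trans-Golgi network, read 11.87, 11.28 and 11.98 at rank 1836. Mbtps1, the site-1 protease, ranked 4788 (10.22 ± 0.04), Pcsk7 ranked 8039, Pcsk4 ranked 11008 and Pcsk6 ranked 12835. Pcsk1, the convertase that cuts POMC to adrenocorticotropic hormone, was the last present member at rank 15277, and Pcsk5 was absent.

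Tyrosine sulphation enzymes were bright, with Tpst1 at rank 995 (12.44 ± 0.23) and Tpst2 at 3460 (10.78 ± 0.26). The protease genes Ctsb, at rank 1335, Rnpep, at 2803, and Ece1, at 4211, were in the upper part as well. Mouse Pam, the endogenous amidating enzyme, read 8.45, 8.37 and 8.17 at rank 9869, below the median rank of present genes, and its other probe lay between. Whether these probes also bind the rat transcript was not tested. Qpctl was absent and Qpct, the enzyme that forms amino-terminal pyroglutamate, lay between.

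**Figure D3:**
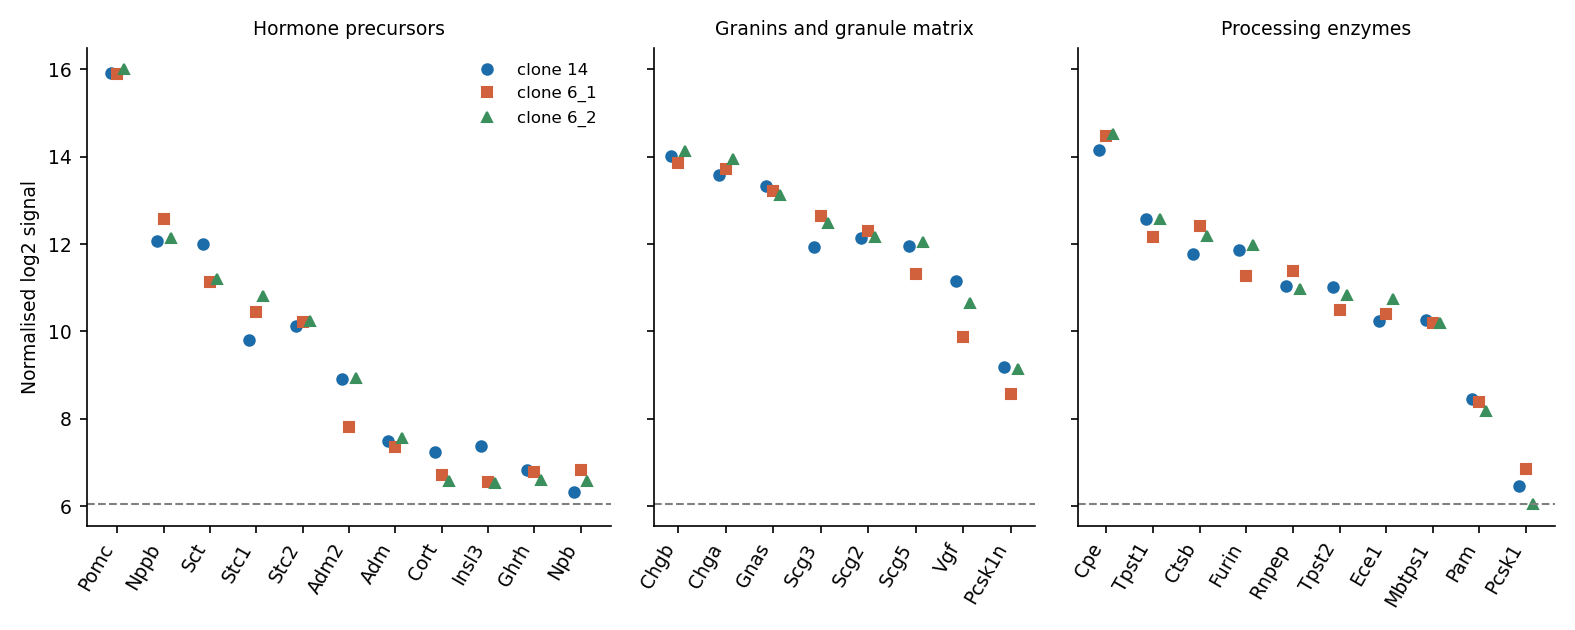
Normalised log2 signal (vertical axis) of present hormone precursors, granins and granule matrix genes, and processing enzymes, with a point per control array (clone 14, 6_1 and 6_2). The dashed line at 6.05 is the dimmest detected probe of clone 6_1, the highest such floor of the 3 arrays. Pomc stands at 15.94, Chgb at 14.00 and Cpe at 14.39, and Pcsk1 is on the line in clone 6_2.

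Genes of the granule membrane and of acidification were well represented. Of 31 granule membrane and transport genes 19 (61.3%) were present, against 46.1% of all genes. Of the 19, 11 (57.9%) lay in the brightest 25%, against 31.9% of all present genes. Atp6ap2 and Atp6ap1, accessory proteins of the proton pump, ranked 124 and 760, and Cyb561, which carries electrons into granules for amidation by PAM, ranked 671 with 12.82, 12.75 and 12.97. Syp (synaptophysin) ranked 2584 and the vesicle SNAREs Vamp3 and Vamp8 ranked 2518 and 2794. Vamp2, the vesicle SNARE of regulated release in neurons, ranked 5526, the granule phosphatase-like protein gene Ptprn 9401, and Rab27a, Rab3d, Rab27b and Rab3a 2899, 4323, 7326 and 8727. The monoamine transporters Slc18a1 and Slc18a2 and the nucleotide transporter Slc17a9 were absent.

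V-ATPase subunits, which acidify the granule, were present in 16 of 21 cases (76.2%), against 46.1% of all genes, with a median rank of 2146.5. Atp6v1h ranked 188 (14.19 ± 0.30), Atp6v1e1 376 (13.42 ± 0.35) and Atp6v1b2 657 (12.86 ± 0.06). The absent members, Atp6v0a4, Atp6v0d2, Atp6v1e2 and Atp6v1g3, are forms that in mouse are best known from other tissues such as kidney, bone and testis.

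Exocytosis genes were present in 25 of 44 cases (56.8%), against 46.1% of all genes. Of the 25, 7 (28%) lay in the brightest 25%, a share no higher than the 31.9% of all present genes. Syt4, a synaptotagmin of dense-core vesicles, was the brightest of them at rank 368, and read 12.69 in clone 14 against 13.92 and 13.72 in the others. Its second probe was absent. Stxbp2, a partner of syntaxins, ranked 1237 (12.21 ± 0.15), and Syt1, the calcium sensor of fast release, ranked 1356 (12.10 ± 0.33), with further probes at ranks 5067 and 13701. Priming and docking genes followed, with Unc13b at 2629, Rims3 at 3236, Nsf at 3454, Rims2 at 3898 and Cplx2 at 4480. Both Snap25 probes were absent on all arrays, at 4.52 to 4.71, while Snap23 and Snap29 ranked 5635 and 4917. Stx1a lay between (5.42, 5.62 and 5.72), and Stx3 and Stx4a were present at ranks 6674 and 6341. SNAP25 and syntaxin 1 are the plasma membrane SNAREs of neuronal release. These values speak for the probes only: Canx, which encodes the widely expressed chaperone calnexin, was also absent, at 4.82, 4.99 and 4.68.

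Receptors for peptides and amines were rarely present. Of 85 analysed, 5 (5.88%) were present, against 46.1% of all genes, 14 lay between and 66 were absent. Of the 5, 0 were in the brightest 25%, against 31.9% of all present genes. Npr2, the receptor guanylyl cyclase for C-type natriuretic peptide, read 10.11, 10.22 and 10.23 at rank 4868. Sstr2 read 9.85, 10.29 and 10.39 at rank 4877, with its other probe absent. Sstr5 read 8.37, 8.07 and 8.23 at rank 10177.

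Sstr2 and Sstr5 encode the somatostatin receptors through which adrenocorticotropic hormone release is restrained, and Sstr1, Sstr3 and Sstr4 were absent. Crhr1 (6.62 ± 0.29) and Gipr, the receptor for glucose-dependent insulinotropic peptide (6.54 ± 0.15 at rank 15075), were the others. The absent receptors include Crhr2, Avpr1a, Avpr1b, Drd2 (4.79, 4.91 and 4.89), Mc2r and Adcyap1r1, and Glp1r, Vipr1, Avpr2 and Sctr lay between. This count depends on the detection threshold, and 10 of the 85 were present at a detection p under 0.05. With presence on at least 2 of the 3 arrays the count was 8.

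Receptors for cytokines and growth factors were present in 21 of 43 cases (48.8%), close to the share of all genes. Those for BMP, TGF-beta and activin spread over the whole range. Bmpr2 ranked 865 (12.57 ± 0.33), Tgfbr1 1130 (12.31 ± 0.19), Acvr2b 3858, Bmpr1a 3991 and Acvr1 5498, while Acvr2a and Acvr1b ranked 12809 and 13389 and Tgfbr2 and Bmpr1b were absent. Bmpr1a read 9.96, 11.10 and 10.59. Fgfr2 ranked 1201 with 12.01, 12.49 and 12.25, but its other present probes ranked 7351, 13527 and 14389, so its place depends on the probe. The other present Bmpr2 and Tgfbr1 probes were likewise at rank 10106 or beyond.

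Insr, the insulin receptor, ranked 4017 (10.54 ± 0.23, with 2 further probes absent) and Igf2r ranked 2638 (11.23 ± 0.08). Lifr, the receptor for leukaemia inhibitory factor, which acts on Pomc in corticotropes, was dim at rank 14256, with 6.56, 6.93 and 6.94. Its partner Il6st ranked 11952. Erbb2, Erbb3, Met and Ret were absent and Egfr lay between.

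Nuclear receptors were present in 14 of 43 cases (32.6%), against 46.1% of all genes. Only Rxrb, a retinoid X receptor, lay in the brightest 25% (rank 2613, 11.25 ± 0.14). Ppard ranked 4292, Nr2f6 4844, Rora 5948 and Esrra 6453. Nr3c1, the glucocorticoid receptor through which corticosterone restrains Pomc, was dim and uneven: it read 6.63, 7.79 and 6.64 at rank 13573, with clone 6_1 above the others. Nr4a2, an orphan receptor of the NGFI-B group that binds the Pomc promoter, ranked 6521 with 9.81, 9.50 and 9.31. Its relatives Nr4a1 and Nr4a3 were absent, as were Nr3c2, the mineralocorticoid receptor, Esr1, Thra and Thrb.

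Genes of glucocorticoid response and steroid handling were present in 9 of 18 cases (50%), close to the 46.1% of all genes. Sgk1 ranked 644 with 12.77, 12.96 and 12.92, Dusp1 ranked 2008 (11.59 ± 0.14), Tsc22d3 4863 (10.19 ± 0.21), Fkbp5 5623 (9.88 ± 0.26) and Per1 7168 (9.30 ± 0.27). These are genes that glucocorticoids are known to induce in many cells. The receptor co-chaperone Fkbp4 ranked 678 and the chaperone Hsp90aa1 758. Hsd3b2, a steroid dehydrogenase, was listed at rank 4453, but 5 of its 6 probes were absent. Hsd11b2, which inactivates corticosterone, and the steroidogenic genes Star, Cyp11a1 and Cyp21a1 were absent, and Hsd11b1 lay between.

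Pituitary and neuroendocrine transcription factors were present in 29 of 52 cases (55.8%), against 46.1% of all genes. Of the 29, 11 (37.9%) lay in the brightest 25%, against 31.9% of all present genes. Hdac2, the deacetylase that takes part in glucocorticoid repression of Pomc, ranked 203 and read 13.54 in clone 14 and 14.39 and 14.38 in the others. Its second probe ranked 13815. Insm1, a zinc finger factor of endocrine cells, ranked 599 (12.96 ± 0.11), Xbp1, a factor of secretory capacity, 707 (12.79 ± 0.09) and Sox11 714 (12.79 ± 0.28). Tbx19 was next, at 12.54 ± 0.08.

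Hes6 ranked 1295, Stat3, which carries the signal of leukaemia inhibitory factor, 1438 and Etv1 2642. Dimmer factors were Neurod4, at rank 11700, and Gata2, at 7713. Smad2 and Smad3 ranked 4904 and 5516, and Creb1, the factor of the cyclic AMP response element, 11267. Absent factors include Isl1, Pax6, Pax7, Otx2, Hesx1, Lhx4 and Nr5a1. Rest, the repressor of neuronal genes, was absent at 4.52, 4.67 and 4.64. Lhx3, Foxl2 and Ikzf1 lay between.

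**Figure D4:**
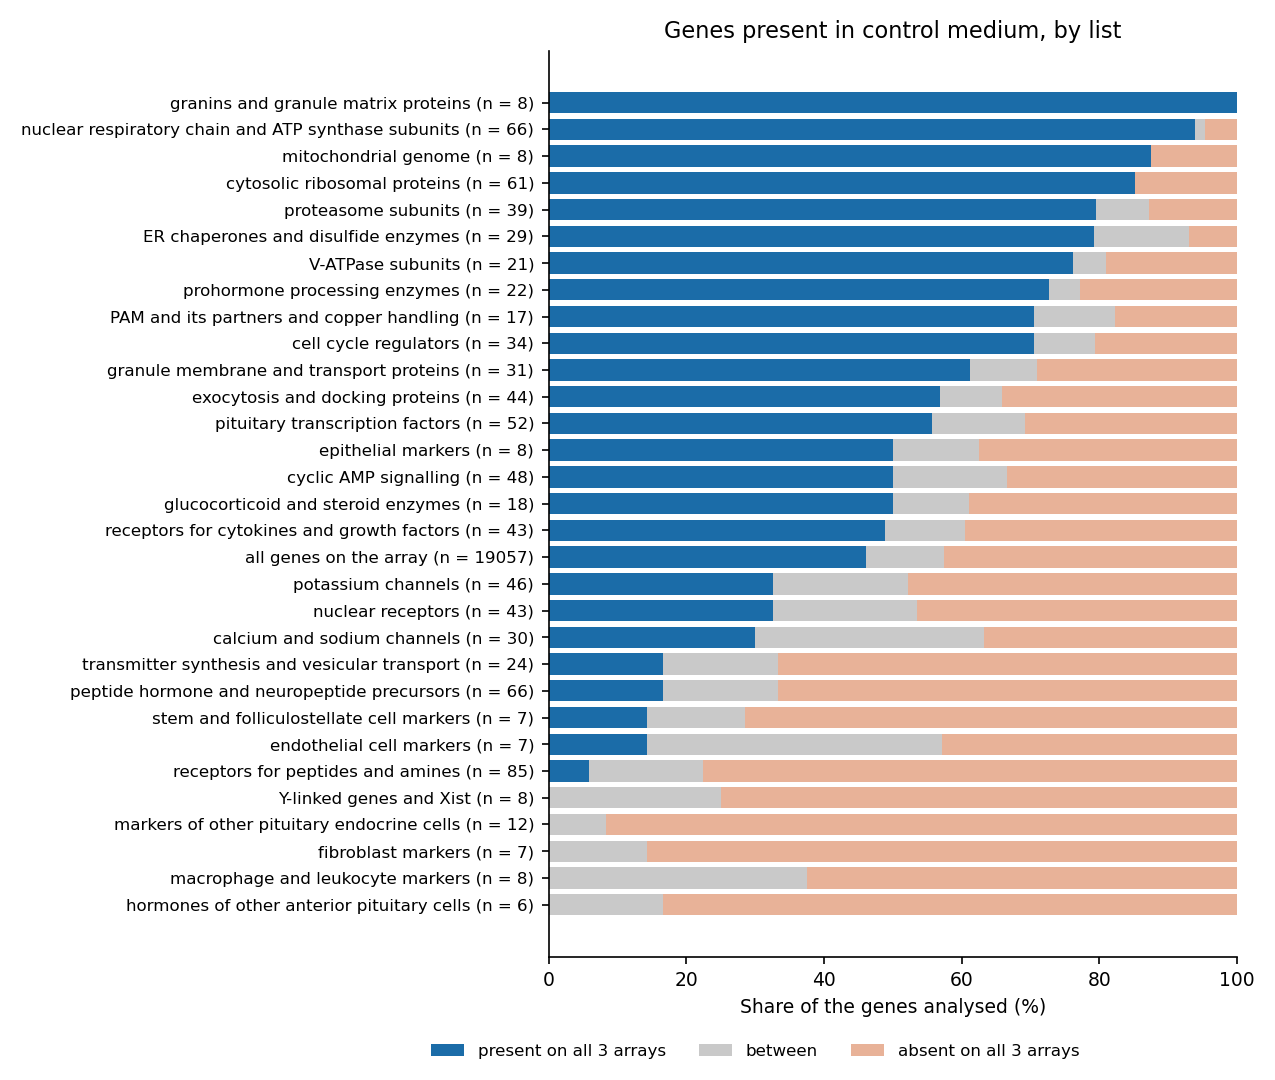
Share of analysed genes (horizontal axis, percent) that were present on all 3 control arrays, between or absent. Bars stand for each gene list except the red blood cell markers, and for all 19057 genes on the array. Granins and granule matrix genes, Gnas included, were present in 8 of 8 cases and receptors for peptides and amines in 5 of 85, with all genes at 46.1%.

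Cyclic AMP signalling is the route from the corticotropin-releasing hormone receptor to Pomc. Its genes were present in 24 of 48 cases (50%), close to the 46.1% of all genes. Of the 24, 9 (37.5%) lay in the brightest 25%, against 31.9% of all present genes. The protein kinase A subunits Prkar1a, Prkacb and Prkar2b ranked 322 (13.59 ± 0.19), 583 (13.01 ± 0.19) and 2460 (11.32 ± 0.39), and Prkaca ranked 4981. Among G protein alpha subunits, Gnas ranked 467, Gnai2 1782, Gnaq 2880 and Gna11 3356, and Gnai1 and Gnai3 were absent. Of the adenylyl cyclases, Adcy9 ranked 6317, close to the median rank of present genes, and Adcy6 13643, while Adcy2, Adcy3, Adcy4, Adcy5 and Adcy8 were absent and Adcy1 and Adcy7 lay between. The kinase inhibitors Pkig, Pkia and Pkib ranked 2891, 3564 and 4059.

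Calcium and sodium channel genes were present in 9 of 30 cases (30%), against 46.1% of all genes, with a median rank of 13472. Cacna2d1, the alpha2delta subunit that carries channels to the membrane, was the exception at rank 490. It read 12.85, 13.82 and 12.89, with clone 6_1 highest, and its other probes ranked 1016 and 6667. The present calcium channel pore subunits were near background: Cacna1b, of N type, ranked 13530, Cacna1d, of L type, 13614, and Cacna1a, of P/Q type, 15360. The sodium channel gene Scn3a was brighter, at rank 9403 (8.49 ± 0.40), with another of its probes absent. Cacna1c and Cacna1e lay between, and the T-type genes Cacna1g, Cacna1h and Cacna1i were absent. Itpr3, a calcium release channel of the endoplasmic reticulum, ranked 4368.

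Potassium and pacemaker channel genes were present in 15 of 46 cases (32.6%), against 46.1% of all genes. Kcnk1, a leak channel, ranked 1229 (12.22 ± 0.28) and Hcn2, a pacemaker channel, 1691 (11.81 ± 0.28). Kcnh2, the ERG channel, ranked 4347, and Abcc8, the sulphonylurea receptor, 9810. Kcnma1, the large-conductance calcium-activated channel described in corticotropes, lay between. Mid-range genes were Kcnc4, Hcn3, Kcnc1 and Kcnk3, at ranks 6379, 8002, 8372 and 8373, and the median rank of the 15 was 9810. Most genes of both channel lists were absent or between, a range where these arrays resolve little.

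Of genes for transmitter synthesis and vesicular transport, 4 of 24 (16.7%) were present, against 46.1% of all genes. Ddc, the aromatic amino acid decarboxylase of monoamine synthesis, ranked 959 with 12.35, 12.49 and 12.57, and a further probe ranked 1152. Gch1, which makes the tetrahydrobiopterin cofactor, ranked 1454 (12.02 ± 0.27). The rate-limiting hydroxylase genes Th and Tph2 were absent and Tph1 lay between, and Dbh, Chat, Gad1 and Gad2 were absent. Hdc, for histamine, ranked 9481 and Slc17a7, a glutamate transporter, 12232 (7.51 ± 0.49).

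Genes tied to PAM and copper were present in 12 of 17 cases (70.6%), against 46.1% of all genes. Mt1 ranked 54 with 15.04, 15.29 and 15.43. Cox17, the chaperone that brings copper to cytochrome oxidase, ranked 264, and Atox1, which hands copper to the secretory pathway, 2949 (11.06 ± 0.36). Slc31a1, the copper importer, ranked 4179 and Ccs, the chaperone for superoxide dismutase, 3999.

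Atp7a, the pump that fills the secretory pathway with copper, was dimmer at rank 10254, with 7.86, 8.71 and 8.02, and Atp7b lay between. Unlike Mt1, the other present metallothionein genes were dim. Mt3 read 9.11 in clone 14 and 7.23 and 7.65 in the others, at rank 10799, and Mt2 ranked 12202 (7.52 ± 0.09). Of the remaining copper genes, Commd1 ranked 1992 and Sco1 8305. Uhmk1, the kinase named with PAM in the title of the series, ranked 15505 with 6.10, 6.58 and 6.40, close to the dimmest present probe. Another Uhmk1 probe was present at rank 15781 and 2 lay between. Rassf9, which encodes a PAM-binding protein, was absent and Kalrn, another known partner, lay between.

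Endoplasmic reticulum chaperones and disulfide enzymes were present in 23 of 29 cases (79.3%), against 46.1% of all genes. Of the 23, 14 (60.9%) lay in the brightest 25%, against 31.9% of all present genes. P4hb ranked 72 (14.85, 15.04 and 15.09), Hsp90b1 193 (13.73, 14.62 and 14.12), Pdia3 259 and Pdia4 585. The translocon-associated genes Ssr4, Ssr3 and Ssr2 ranked 268, 297 and 958. Hspa5, the main chaperone of the compartment, ranked 8512 on its probe, with 8.53, 8.90 and 8.97. Housekeeping families were bright as well: 7 of 8 genes of the mitochondrial genome were present with a median rank of 134, 52 of 61 cytosolic ribosomal protein genes were present with a median rank of 305.5, 62 of 66 nuclear respiratory chain and ATP synthase genes with 1556.5, and 31 of 39 proteasome genes with 1835.

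Cell cycle genes were present in 24 of 34 cases (70.6%), against 46.1% of all genes. Of the 24, 11 (45.8%) lay in the brightest 25%, against 31.9% of all present genes. Cdkn1a, the p21 inhibitor, was the brightest at rank 292 with 13.47, 13.68 and 13.91. Mdm2, like it a target of p53, ranked 1220 (12.23 ± 0.20). Also of high rank were Cdk2, Ccne2, Mcm2, Top2a, Cdk1 and E2f1, which act in replication and division, at 823, 973, 1001, 1382, 1413 and 1511. Other genes of the same steps were dimmer, with Aurkb at 5001, Pcna at 6727 and Ccne1 at 7460, and Ccna2 lay between and Ccnb2 was absent. Ccne2 read 11.69 in clone 14 against 13.05 and 12.63. Cdkn1b, the p27 inhibitor that glucocorticoids regulate in corticotropes, was dimmer at rank 11140, and Rb1 ranked 10619. Among G1 cyclin and kinase genes Ccnd1, Ccnd2 and Cdk6 were absent, while Ccnd3 ranked 4942 and Cdk4 2668. Usp8, the deubiquitinase mutated in many human corticotrope tumours, ranked 6724.

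Most present probes differed little between the clones. The median SD was 0.256 and the median range 0.486 on the log2 scale, and 1432 present probes (9.0%) ranged over more than 1 and 21 over more than 2. Of the 1432, clone 6_1 was highest in 662 and lowest in 647, clone 14 highest in 648 and lowest in 605, and clone 6_2 highest in 122 and lowest in 180. Without clone 14 there were 289 such probes, without clone 6_1 there were 242 and without clone 6_2 there were 1219, where a range over fewer arrays can only be equal or smaller. The count also depends on the scale: it was 513 without background correction and 505 with the authors' processed values. Medians of the SD in steps of 25% of the ranks were 0.233, 0.256, 0.272 and 0.265 from the brightest to the dimmest.

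The named gene with the widest range was Egr1, an immediate early factor, with 7.68 in clone 14 and 12.32 and 11.86 in clones 6_1 and 6_2. Fos, also immediate early, had the same order, with 9.89, 12.57 and 12.29. Pcdh9, a protocadherin, read 10.09, 12.74 and 12.41, Elmo1 6.10, 8.32 and 8.09 on 1 of its 14 probes, and Rb1 6.87, 9.14 and 8.19. In these genes clone 14 was the low one. Cgas, the cytosolic DNA sensor, was at the edge of detection in clone 14 (6.02) and read 8.72 and 9.42 in the others.

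The opposite order, with clone 14 highest, held for the rest of the 12 named genes of widest range. Pnliprp2, a lipase-related protein, read 12.57, 9.22 and 9.61. Mgp, matrix Gla protein, read 10.17, 7.06 and 7.46, and Bmp7, a bone morphogenetic protein, 9.79, 7.37 and 7.49. Rab25 read 11.56, 9.38 and 9.56, Cidea 9.78, 7.66 and 8.49, and Samd9l 10.15, 8.53 and 7.38. In all 12, clone 14 lay outside the values of clones 6_1 and 6_2. The genes were chosen for their range, so this is a description of these 3 arrays. Tbx19 (range 0.14) and Scg2 (0.16) varied far less. The range of Pomc, 0.09, was read near the top of the scale, and its dimmer probe read 9.23, 8.54 and 9.28.

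**Figure D5:**
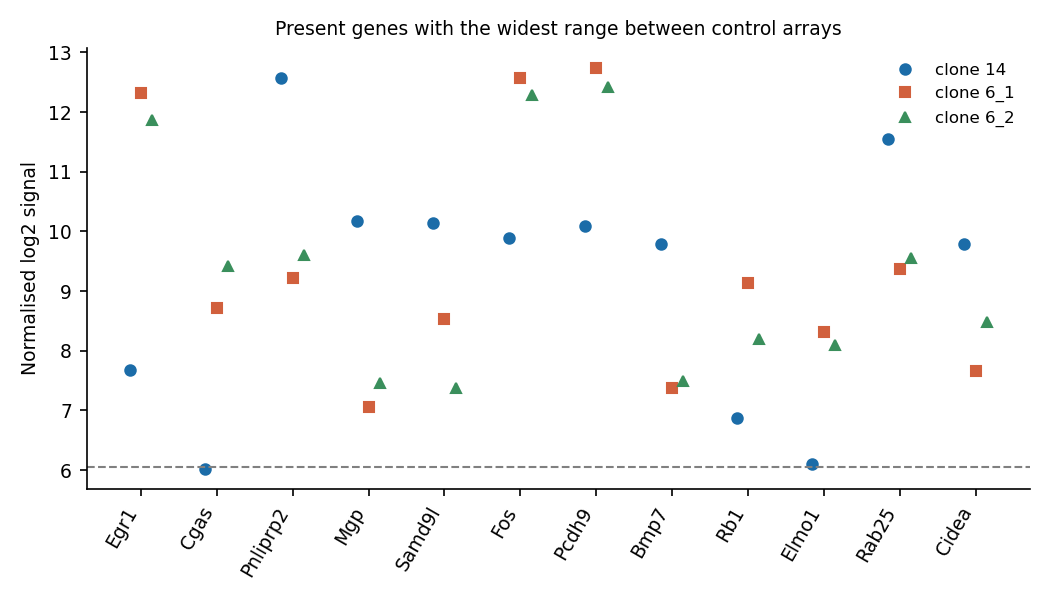
Normalised log2 signal (vertical axis) of the 12 present genes with the widest range between control arrays, with a point per array. The dashed line at 6.05 is the dimmest detected probe of clone 6_1, the highest such floor of the 3 arrays. Clone 14 is the lowest point in Egr1 (7.68), Cgas, Fos, Pcdh9, Rb1 and Elmo1 and the highest in Pnliprp2 (12.57), Mgp, Samd9l, Bmp7, Rab25 and Cidea.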

How the data were processed

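Per the file headers, the deposited scanner table gives each probe an intensity on a linear scale, without background subtraction, and a detection p-value on every array. A second deposited table has the authors' processed intensity, whose normalisation is not stated in the labels. The submitters' processing notes list BeadStudio and GenomeStudio, without versions. Signals of all 6 arrays were normalised together with limma 3.58.1 in R 4.3.3 (neqc: background inferred from the detection p-values, offset 16, quantile normalisation, log2). The offset pulls dim probes together. Columns of other series numbered 0. Arrays were grouped by their titles.

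Gene symbols came from the platform annotation, which gives 34885 probes 1 symbol, 18 several and 10378 none. Entrez numbers of 34807 were found in the GRCm38.p6 annotation, and 0 symbols changed. Of 779 genes in 27 lists 705 were analysed. The naming rule covered the 25 brightest genes, fixed lineage and hormone genes, and the 12 genes of widest range. From the lists it took all present members where these numbered up to 12, and otherwise the 8 brightest. Not every gene under the rule is named in the text, some of the 25 brightest included. Further present members were named after their values were seen, and absent members as absent. Members and lists were chosen with earlier results of these data known. With 1 group and 1 array per clone no test was made, and every p is a detection p. Ranking code was tested on simulated data. A comparison of precursor protein sequences was planned and not run.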

Additional observations from a re-analysis of the deposited data

How the results depend on the processing

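The number of present probes was 17796 at a detection p under 0.05, 13445 under 0.001, 17004 with presence on at least 2 of the 3 arrays, and 16133 to 16407 with an array left out, where more probes pass because fewer arrays must. Absent probes numbered 27043 at p of 0.01 or more and 24494 to 24950 with an array left out. At p under 0.05 present genes numbered 18 of the hormone precursors, 10 of the receptors for peptides and amines, 2 stem and folliculostellate markers, 2 macrophage and leukocyte markers, and 1 of the Y-linked genes and Xist. With at least 2 of 3 arrays there were 8 receptors for peptides and amines and 1 macrophage and leukocyte marker, and this marker count was 0 to 1 with an array left out, the 1 being without clone 6_2. Pomc ranked 16 to 17 under the other normalisations and 13 to 20 with an array left out.

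Probes ranging over more than 1 numbered 513 without background correction, 505 with the authors' values, 1391 with the control arrays normalised alone, 1988 with median scaling and 242 to 1219 with an array left out. These alternatives were chosen after seeing the data. The place of a gene depends most on its probe. With the mean over present probes, 56 of the 190 present genes under the naming rule moved by more than their spread. Fgfr2 moved by 45.7 percentage points. Genes with 1 present probe are among the 190 and could not move, so the share understates how far places depend on the probe. Of the 5406 present genes with several probes, 2495 (46.2%) also had an absent one. No paired analysis was possible because a single group is described and each clone has 1 control array. Weak signals near 6.05 on the log2 scale are at the limit of detection. Signals under the dimmest detected probe of an array are not told from background at that threshold, so absence of the transcript is not shown.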
